A study of Mus musculus with 4 samples.

Results

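Necroptosis and pyroptosis are forms of lytic cell death, and the 10 genes described here carry out their central steps: *Zbp1*, *Ripk1*, *Ripk3*, *Mlkl*, *Casp8*, *Casp1*, *Casp4*, *Gsdmd*, *Nlrp3* and *Pycard*. They were chosen by name, as the rows whose gene name equals one of these symbols, and all 10 were found among the 39186 genes of the table that the authors deposited. The RNA came from LSK cells of the mouse fetal liver, sorted as Lin−Sca-1+c-Kit+ and containing the hematopoietic stem cells. RNA from 2 *Pich*-KO and 2 *Pich*-WT samples of the strain C57BL/6 was sequenced. *Pich*-KO mice carry a small TALEN-made deletion at the start of the second exon of *Pich*, an X-linked gene for a DNA translocase that acts on mitotic ultrafine DNA bridges. The deletion is constitutive, so all cells of the embryo and of the liver around the sorted cells lack PICH as well, and *Pich*-WT mice carry the intact gene. The study's sorting methods name E14.5 embryos as the source of the fetal livers. The labels do not say whether the samples of a group came from separate embryos, so the spread between samples may be partly technical. The *Pich*-WT samples differed in their sex-linked genes, as given below, so they did not come from the same embryo. For the *Pich*-KO samples this is not known. The p-values draw on the spread between these samples and on variance estimated over all genes tested.

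In necroptosis, ZBP1 senses nucleic acids in the Z conformation and RIPK1 relays signals from death receptors. Both bind RIPK3, which phosphorylates MLKL, and MLKL then breaks the plasma membrane, while caspase-8 blocks this route by cleaving the kinases. In pyroptosis, sensors such as NLRP3 assemble with the adaptor ASC, the product of *Pycard*, and activate caspase-1, whereas the product of mouse *Casp4*, known as caspase-11, is activated directly by bacterial lipopolysaccharide. Both caspases cut gasdermin D, whose released part forms membrane pores, and caspase-1 also matures interleukin-1β and interleukin-18. Interferons are known to raise the transcription of several of these genes, *Zbp1* and *Casp4* among them.

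*Zbp1*, *Casp4* and *Pycard* were higher in *Pich*-KO than in *Pich*-WT LSK cells, and 0 of the 10 genes passed the test as lower. *Zbp1* differed most, with a mean normalized count 5.50-fold that of *Pich*-WT, followed by *Casp4* at 1.71-fold and *Pycard* at 1.38-fold. *Ripk1* and *Ripk3* had lower values in both *Pich*-KO samples than in both *Pich*-WT samples, with an adjusted p just above 0.05. *Mlkl*, *Casp8*, *Gsdmd*, *Casp1* and *Nlrp3* did not pass the test. The values are normalized counts, which are the reads counted on a gene divided by 1 size factor per sample, and limma was run on log2(normalized count + 1) to compare the groups, with Benjamini-Hochberg adjustment over all 32428 genes that had a mean of at least 1. A gene was called at an adjusted p under 0.05. By this rule 7.58% of all genes tested were higher and 9.60% lower in *Pich*-KO, beside 3 of the 10 genes higher and 0 lower. The genes tested include many with few reads. Over the 13924 genes with at least 10 reads in every sample, 21.1% were higher and 22.5% lower by limma. In that fit 3 of the 10 genes were higher and 2 lower, which is near those shares. At an unadjusted p under 0.05, 3 of the 10 genes were higher and 2 lower, beside 13.7% and 15.0% of all genes tested. limma's prior variance followed the mean here, and with 1 prior variance for all genes the adjusted p by limma was 0.112 for *Zbp1*, 0.176 for *Casp4* and 0.314 for *Pycard*, so that none of the 3 passed. The folds given above are ratios of mean normalized counts, the log2 fold changes given below are on the log2(normalized count + 1) scale, and the 10 genes had 148 to 3449 reads each per sample.

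**Figure D1:**
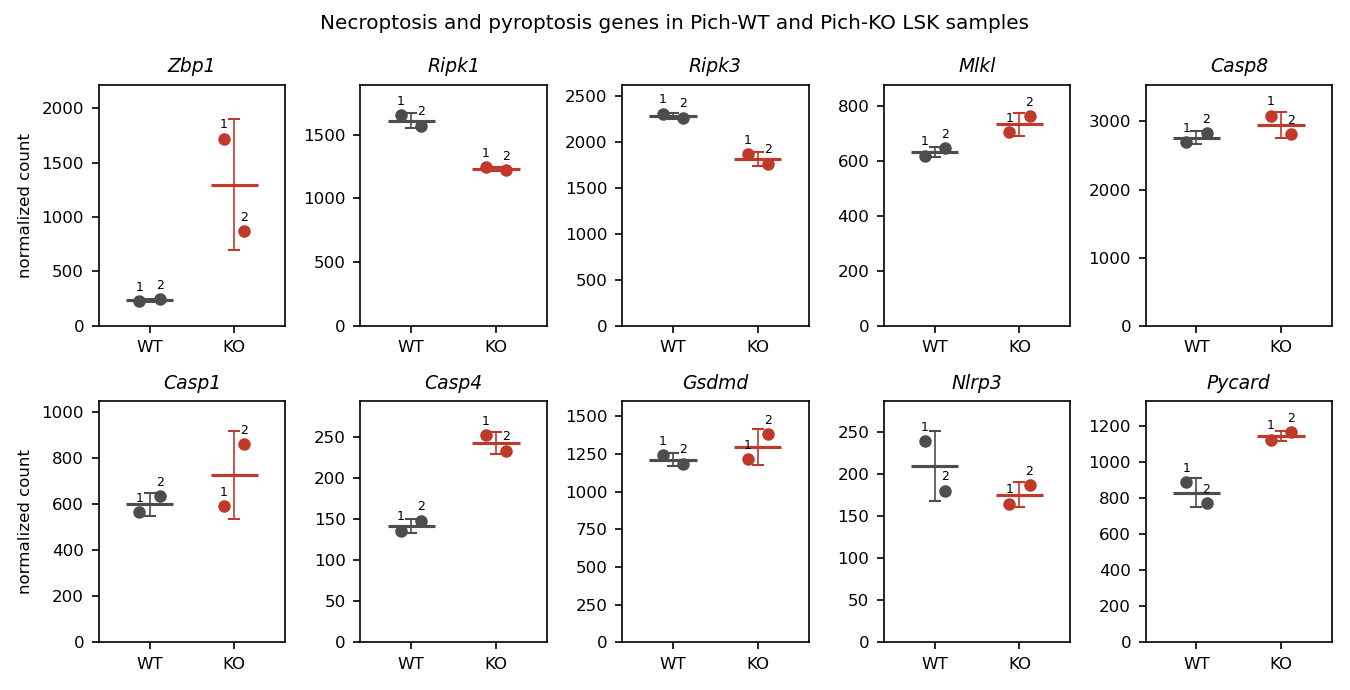
Normalized count of each of the 10 genes (vertical axis, from 0) in the *Pich*-WT samples (grey) and the *Pich*-KO samples (red), with the sample number above each point, the group mean as a horizontal line and the SD of the 2 samples as a bar. The *Pich*-KO points of *Zbp1*, *Casp4* and *Pycard* lie above both *Pich*-WT points, those of *Ripk1* and *Ripk3* lie below them, and the *Zbp1* values of the *Pich*-KO samples are 1719 and 868.5.

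The libraries held 14703215 to 20933919 reads on genes. *Pich*-WT sample 2 stood apart by its sex-linked genes, with 0 reads on 4 Y-linked genes and 699 on *Xist*, where the others had 1607 to 2848 and 4 to 13. By these genes it was of the female type and the others of the male type. Sex thus differed within *Pich*-WT and was not balanced between the groups. The labels do not give it, and its part in the values was not tested. *Ercc6l*, the symbol of the PICH gene, had 1142 and 1232 normalized counts in the *Pich*-KO libraries against 772.1 and 661 in the *Pich*-WT libraries. The allele is a small deletion, so the level of this RNA does not check the genotype. The LSK markers *Kit* and *Ly6a*, the gene of Sca-1, were read in every sample. *Ly6a* had 3586 and 2978 normalized counts in the *Pich*-KO libraries against 901.1 and 1061 in the *Pich*-WT libraries. Of 11 LSK and stem cell markers 1 was higher and 5 were lower, so these reads do not show that the sorted cells matched. No library repeated another, since the chi-square divided by its degrees of freedom was 17.7 within *Pich*-KO and 9.54 within *Pich*-WT, and each was counted as 1 replicate. For a single gene, the smallest p that an exact two-sided permutation test of this design allows is 0.333.

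RefSeq promoter windows of the build GRCm38.p6, from 250 bases before to 50 bases after a transcript start, were found for 8 of the 10 genes in 11 windows. The window of *Pycard* and the first of 2 overlapping windows of *Casp4* are shown because these genes passed the test, and a window of *Ripk1* is shown because it alone among the 11 held a letter match to a searched motif. *Zbp1* and *Gsdmd* were not matched. The motifs were the core of the interferon-stimulated response element, searched as GAAANNGAAA and on the other strand TTTCNNTTTC, and the gamma-activated sequence, TTCNNNGAA, which reads the same on both strands. The first was in 3.44% and the second in 8.30% of all 32851 windows of the same length. Capitals mark the matches, and a sequence with no capitals held neither motif.
*Ripk1*, chr13:34002624-34002923, plus strand: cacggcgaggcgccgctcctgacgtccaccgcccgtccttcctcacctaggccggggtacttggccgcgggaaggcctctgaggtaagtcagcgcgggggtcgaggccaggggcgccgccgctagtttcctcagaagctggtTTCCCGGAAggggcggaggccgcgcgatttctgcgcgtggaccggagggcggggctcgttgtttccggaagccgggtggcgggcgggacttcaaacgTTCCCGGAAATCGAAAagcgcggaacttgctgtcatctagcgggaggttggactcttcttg
*Casp4*, chr9:5308599-5308898, plus strand: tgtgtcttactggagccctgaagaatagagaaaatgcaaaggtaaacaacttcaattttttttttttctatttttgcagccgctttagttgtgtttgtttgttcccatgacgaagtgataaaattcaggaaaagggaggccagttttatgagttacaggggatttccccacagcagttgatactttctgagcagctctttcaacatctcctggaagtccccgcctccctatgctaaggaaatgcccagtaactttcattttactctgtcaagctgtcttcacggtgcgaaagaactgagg
*Pycard*, chr7:127993818-127994117, minus strand: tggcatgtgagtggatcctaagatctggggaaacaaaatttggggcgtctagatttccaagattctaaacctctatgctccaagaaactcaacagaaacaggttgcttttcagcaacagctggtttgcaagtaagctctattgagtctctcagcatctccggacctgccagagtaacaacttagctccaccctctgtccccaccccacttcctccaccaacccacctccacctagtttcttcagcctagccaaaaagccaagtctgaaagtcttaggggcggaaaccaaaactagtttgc
In the *Ripk1* window, which belongs to the more downstream of its 2 starts, a gamma-activated sequence lay at −108 to −100 and a second at −11 to −3 from the start. The last letters of the second are the first letters of the response element core, which lay at −5 to 5. A match of letters is a description of the window and not a bound site.

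*Zbp1* (ENSMUSG00000027514, GRCm38 chromosome 2, 173206612 to 173218923, minus strand), the gene of the Z-nucleic acid sensor, had 1719 and 868.5 normalized counts in *Pich*-KO samples 1 and 2 and 225.9 and 245 in *Pich*-WT samples 1 and 2. Both *Pich*-KO samples were above both *Pich*-WT samples, and *Pich*-KO sample 1 had 1.98-fold the count of *Pich*-KO sample 2. The log2 fold change was 2.37 (standard error 0.29, 95% interval 1.70 to 3.04, adjusted p = 0.0011, limma). Without *Pich*-KO sample 1, the higher of the pair, it was 1.88 with an adjusted p of 0.04 by limma, and without *Pich*-KO sample 2 it was 2.86 with an adjusted p of 0.0642. Leaving out either *Pich*-WT sample gave 2.31 and 2.43, with adjusted p of 0.26 and 0.242 by limma. When any sample other than *Pich*-KO sample 1 was left out, 0 of all genes passed in either direction, although 5716 to 7572 had an unadjusted p under 0.05.

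*Ripk1* (ENSMUSG00000021408, chromosome 13, 34002363 to 34037147, plus strand), the kinase below death receptors, had 1242 and 1219 normalized counts in the *Pich*-KO libraries against 1650 and 1568 in the *Pich*-WT libraries. *Ripk3* (ENSMUSG00000022221, chromosome 14, 55784995 to 55788865, minus strand), the kinase that ZBP1 and RIPK1 both engage, had 1866 and 1760 against 2302 and 2259. For both kinases the samples of a group lay close together and the groups did not overlap. The log2 fold change of *Ripk1* was −0.39 (standard error 0.11, 95% interval −0.65 to −0.12, adjusted p = 0.0537, limma). That of *Ripk3* was −0.33 (standard error 0.10, 95% interval −0.57 to −0.09, adjusted p = 0.0687, limma). When edgeR's quasi-likelihood test was run on recovered reads, both passed as lower, with adjusted p of 0.0271 for *Ripk1* and 0.0388 for *Ripk3*, and edgeR called 18.6% of the genes it tested higher and 20.7% lower. Both also passed as lower by limma over the 13924 genes with at least 10 reads in every sample, of which 22.5% were lower, so 2 of 10 is near the share over all genes in either fit.

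At its start *Ripk1* shares 241 exonic bases with *Serpinb6a*, a protease inhibitor gene on the opposite strand, and the library kit does not mark strand, so reads there cannot be told apart. *Serpinb6a* had 199 and 178 reads in the *Pich*-KO libraries against 1274 and 1078 in the *Pich*-WT libraries, fewer in *Pich*-KO as for *Ripk1*, and its part in the *Ripk1* values was not tested. *Ripk3* has no such neighbour among the overlapping genes found.

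*Mlkl* (ENSMUSG00000012519, chromosome 8, 111311797 to 111338177, minus strand), the executioner that breaks the membrane, had 705.7 and 765 normalized counts in the *Pich*-KO libraries against 620.5 and 647 in the *Pich*-WT libraries. Both *Pich*-KO values were above both *Pich*-WT values, yet the log2 fold change of 0.21 had a 95% interval of −0.11 to 0.53 and an adjusted p of 0.379 by limma. *Casp8* (ENSMUSG00000026029, chromosome 1, 58795374 to 58847503, plus strand), the protease that blocks necroptosis, had 3082 and 2813 against 2695 and 2827. The groups overlapped, since *Pich*-WT sample 2 was above *Pich*-KO sample 2, and the log2 fold change was 0.093 (95% interval −0.14 to 0.33, adjusted p = 0.613, limma).

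*Casp4* (ENSMUSG00000033538, chromosome 9, 5308828 to 5336783, plus strand), the gene of the lipopolysaccharide-activated caspase, had 252 and 233 normalized counts in the *Pich*-KO libraries against 136 and 148 in the *Pich*-WT libraries. The groups did not overlap, and the samples of each were close together. The log2 fold change was 0.77 (standard error 0.20, 95% interval 0.30 to 1.23, adjusted p = 0.0351, limma). It passed with edgeR and DESeq2 and did not without the filter on the mean, at an adjusted p of 0.0523 by limma, nor with any sample left out, at 0.134 to 0.26.

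*Casp1* (ENSMUSG00000025888, chromosome 9, 5298517 to 5307265, plus strand) lies upstream of *Casp4* on the same strand and encodes the inflammasome caspase. It had 592.3 and 861.6 normalized counts in the *Pich*-KO libraries against 565 and 636 in the *Pich*-WT libraries. Only *Pich*-KO sample 2 stood out, at 1.45-fold *Pich*-KO sample 1, and sample 1 lay between the *Pich*-WT samples. The log2 fold change was 0.25 (95% interval −0.20 to 0.71, adjusted p = 0.475, limma), and without *Pich*-KO sample 2 it was −0.017.

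*Nlrp3* (ENSMUSG00000032691, chromosome 11, 59541568 to 59566956, plus strand), the inflammasome sensor, had 164.7 and 186.4 normalized counts in the *Pich*-KO libraries against 239.1 and 180 in the *Pich*-WT libraries. *Pich*-WT sample 1 was the highest and the groups overlapped, with a log2 fold change of −0.24 (95% interval −0.76 to 0.28, adjusted p = 0.549, limma). *Pycard* (ENSMUSG00000030793, chromosome 7, 127989708 to 127993867, minus strand), the gene of the adaptor ASC that joins sensor and caspase-1, had 1122 and 1163 against 885.4 and 771. Both *Pich*-KO samples were above both *Pich*-WT samples, which differed 1.15-fold from each other. The log2 fold change of *Pycard* was 0.47 (standard error 0.13, 95% interval 0.16 to 0.78, adjusted p = 0.0486, limma). That call was lost with a pseudocount of 0.1, where the adjusted p by limma was 0.0625, without the filter on the mean, where it was 0.0777, and with any sample left out, where it was 0.167 to 0.304.

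*Gsdmd* (ENSMUSG00000022575, chromosome 15, 75862327 to 75867408, plus strand), the pore-forming substrate of both caspases, had 1213 and 1382 normalized counts in the *Pich*-KO libraries against 1241 and 1184 in the *Pich*-WT libraries. *Pich*-KO sample 1 lay between the *Pich*-WT samples, and the log2 fold change was 0.095 (95% interval −0.20 to 0.39, adjusted p = 0.692, limma).

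Across the 10 genes, 7 log2 fold changes were positive and 3 negative, with a median of 0.15 beside 0.025 over all genes tested. The groups did not overlap for 6 of the 10 genes, and the same held for 56.1% of all genes tested, so that count is close to the background. edgeR called 3 of the 10 higher and 2 lower, the latter being *Ripk1* and *Ripk3*. Of all genes it tested, edgeR called 18.6% higher and 20.7% lower, so these counts are near the background too.

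The genes were compared with each other as normalized counts per kilobase of the gene length given in the deposited table, which joins the exons of all transcripts of a gene. In *Pich*-WT the level was highest for *Ripk3*, at 995 ± 13.1 (SD, n = 2), and *Casp8*, at 954 ± 32.2, followed by *Gsdmd* at 510 ± 17.0 and *Casp1* at 401 ± 33.5. *Mlkl*, *Pycard* and *Ripk1* lay lower, at 275 ± 8.13, 218 ± 21.3 and 193 ± 6.93 per kilobase. *Zbp1* at 66.7 ± 3.84, *Nlrp3* at 51.7 ± 10.3 and *Casp4* at 38.3 ± 2.29 were the lowest. No neighbours in this order had overlapping values, although the nearest samples of *Ripk3* and *Casp8*, at 986 and 977, of *Pycard* and *Ripk1*, at 203 and 198, and of *Nlrp3* and *Casp4*, at 44.4 and 39.9, lay close together.

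In *Pich*-KO the order began with *Casp8* at 1019 ± 65.7 (SD, n = 2) and *Ripk3* at 791 ± 32.9 per kilobase. *Zbp1*, at 367 ± 170, moved from the eighth to the fifth place. Its 2 samples, at 487 and 246 per kilobase, spanned the levels of *Mlkl* and *Pycard* and the lower sample of *Casp1*, so its place among these is not resolved. *Gsdmd* at 546 ± 50.4 and *Casp1* at 486 ± 127 also overlapped. *Casp4* reached 65.4 ± 3.61, above *Nlrp3* at 43.3 ± 3.79 in both samples, the reverse of their order in *Pich*-WT.

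**Figure D2:**
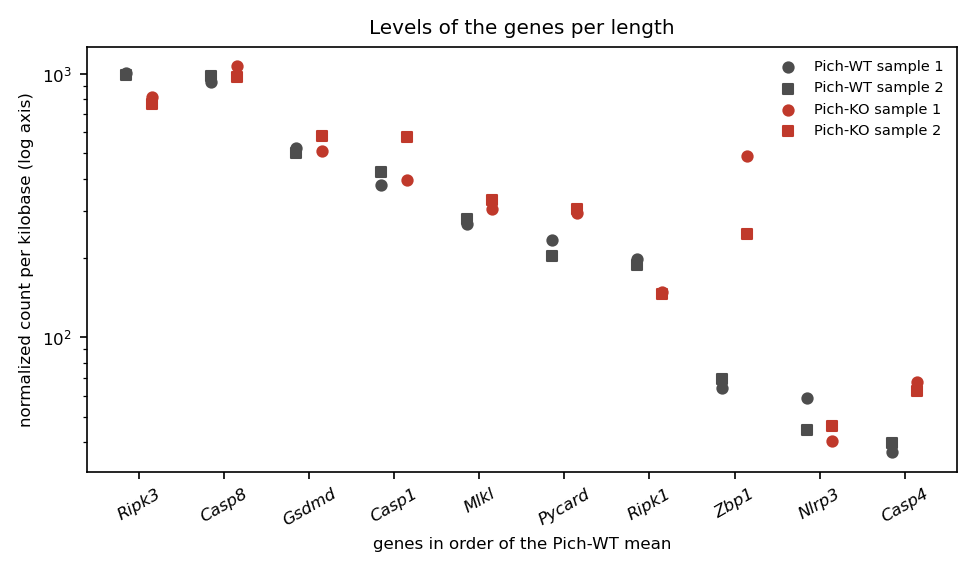
Normalized count per kilobase of gene length (log axis) of the 10 genes, in order of the *Pich*-WT mean, with circles for sample 1 and squares for sample 2 of each group (grey *Pich*-WT, red *Pich*-KO). *Zbp1* lies at 64.0 and 69.4 in *Pich*-WT and at 487 and 246 in *Pich*-KO, while *Ripk3* and *Casp8* stay among the highest in both groups.

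Ratios of these levels within a sample do not depend on the size factors. *Zbp1* per kilobase was 59.8% and 32.1% of *Ripk3* in the *Pich*-KO libraries against 6.37% and 7.04% in the *Pich*-WT libraries. *Mlkl* was 37.6% and 43.3% of *Ripk3* in *Pich*-KO against 26.8% and 28.5% in *Pich*-WT. Thus the sensor and the executioner were both higher relative to the kinase in each *Pich*-KO sample than in each *Pich*-WT sample. *Mlkl* itself did not pass the test, and its ratio also reflects the lower *Ripk3* values in *Pich*-KO. *Ripk3* was 76.4% and 78.9% of *Casp8*, its protease, in *Pich*-KO against 108% and 101% in *Pich*-WT. *Nlrp3* was 13.7% and 15% of *Pycard* in *Pich*-KO against 25.3% and 21.9% in *Pich*-WT. *Casp4* was 17.2% and 10.9% of *Casp1* in *Pich*-KO against 9.71% and 9.39% in *Pich*-WT, so that the sample with high *Casp1* came close to the *Pich*-WT ratio. These ratios were not tested.

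Around the 10 genes, 61 genes of the same pathways were taken in 5 lists, of which 7 were higher and 11 lower, with a median log2 fold change of −0.016. Over all genes tested 7.58% were higher and 9.60% lower, and these shares stand beside the counts of each list below. With at least 10 reads in every sample, 8 of 47 pathway genes were higher and 11 lower. Over all genes in that fit 21.1% were higher and 22.5% lower, so the counts are near those shares. The 19 regulators of the death complexes had 3 higher and 3 lower members. *Adar*, an RNA-editing enzyme that is known to restrain ZBP1 and carries a Z-nucleic acid binding domain like it, had 3883 and 3026 normalized counts in the *Pich*-KO libraries against 1077 and 1149 in the *Pich*-WT libraries. As for *Zbp1*, *Pich*-KO sample 1 was the higher of its group and the groups did not overlap, and the log2 fold change was 1.62 (adjusted p = 0.000228, limma). *Rnf31* and *Rbck1*, whose products belong to the complex that builds linear ubiquitin chains on RIPK1, were higher by 0.55 (adjusted p = 0.0195, limma) and 0.38 (adjusted p = 0.0251, limma). *Otulin*, whose product removes such chains, fell by 2.26 on the log2 scale (adjusted p = 0.0136, limma), with 386 and 111 normalized counts against 1032 and 972. Without *Pich*-KO sample 2, the lower of its group, the log2 fold change of *Otulin* was −1.37. The call of *Otulin* was lost without the filter on the mean (adjusted p = 0.0684, limma). In the same list *Sharpin* had −0.18 (adjusted p = 0.48, limma) and *Cyld* had 0.56 (adjusted p = 0.0977, limma), and neither passed.

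*Tnfrsf1a*, the tumor necrosis factor receptor upstream of RIPK1, had a value of −0.91 on the log2 scale (adjusted p = 0.000783, limma). *Tnfaip3*, the gene of the ubiquitin-editing inhibitor A20, had −0.82 (adjusted p = 0.00463, limma). *Fadd*, the adaptor that brings caspase-8 to the receptor complex, had −0.22 (adjusted p = 0.438, limma), and *Cflar*, the catalytically inactive partner of caspase-8, had 0.15 (adjusted p = 0.552, limma), so neither of these partners of caspase-8 passed the test.

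Of 18 inflammasome sensors, adaptors and regulators, 1 was higher and 1 lower, with a median log2 fold change of 0.0086. *Dpp8*, which encodes a peptidase that holds the NLRP1 sensor inactive, was higher by 0.49 (adjusted p = 0.0357, limma), although not with a pseudocount of 0.1 (adjusted p = 0.0507, limma). *Txnip*, whose product is known to bind NLRP3, had a value of −1.18 on the log2 scale (adjusted p = 0.000312, limma). *Aim2*, the sensor of cytosolic double-stranded DNA, had 0.59 (adjusted p = 0.0537, limma), and passed with edgeR (adjusted p = 0.0274) and DESeq2 (adjusted p = 0.0229). *Nlrc4*, whose product acts in the response to bacterial flagellin and secretion systems, had 0.16 (adjusted p = 0.793, limma). *Nek7*, the partner of NLRP3, had −0.034 (adjusted p = 0.903, limma). The sign of both turned without *Pich*-KO sample 2 and without *Pich*-WT sample 2, to −0.12 and −0.13 for *Nlrc4* and to 0.047 and 0.028 for *Nek7*.

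Of 10 other gasdermins and membrane rupture genes, 0 were higher and 1 lower, with a median of −0.090. The one was *Ninj1*, whose product ruptures the membrane after pore formation, and its log2 fold change was −0.49 (adjusted p = 0.0248, limma). *Gsdme*, another pore-forming gasdermin, had −0.21 (adjusted p = 0.465, limma). Only 6 of the 10 had reads in every sample, and 8 had at most 9 reads in any sample.

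The interleukin-1 family, which holds the cytokine substrates of caspase-1, had the lowest median of the 5 lists, at −2.20, and 3 of its 4 genes were lower. *Il1b*, a target of caspase-1, had 43.6 and 21.6 normalized counts in the *Pich*-KO libraries against 258 and 115 in the *Pich*-WT libraries. The groups did not overlap, and the log2 fold change was −2.45 (adjusted p = 0.00887, limma). *Il18*, the other target of caspase-1, had 140 and 79.6 against 400 and 427, which gave a log2 fold change of −1.96 with an adjusted p of 0.00227 by limma. *Il1a*, which encodes interleukin-1α, had 30.5 and 2.27 against 321 and 479, with only 28 and 2 reads behind the *Pich*-KO values. Its log2 fold change, −5.27 with an adjusted p of 0.00491 by limma, therefore depends on the pseudocount and on *Pich*-KO sample 2, without which it was −3.64.

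**Figure D3:**
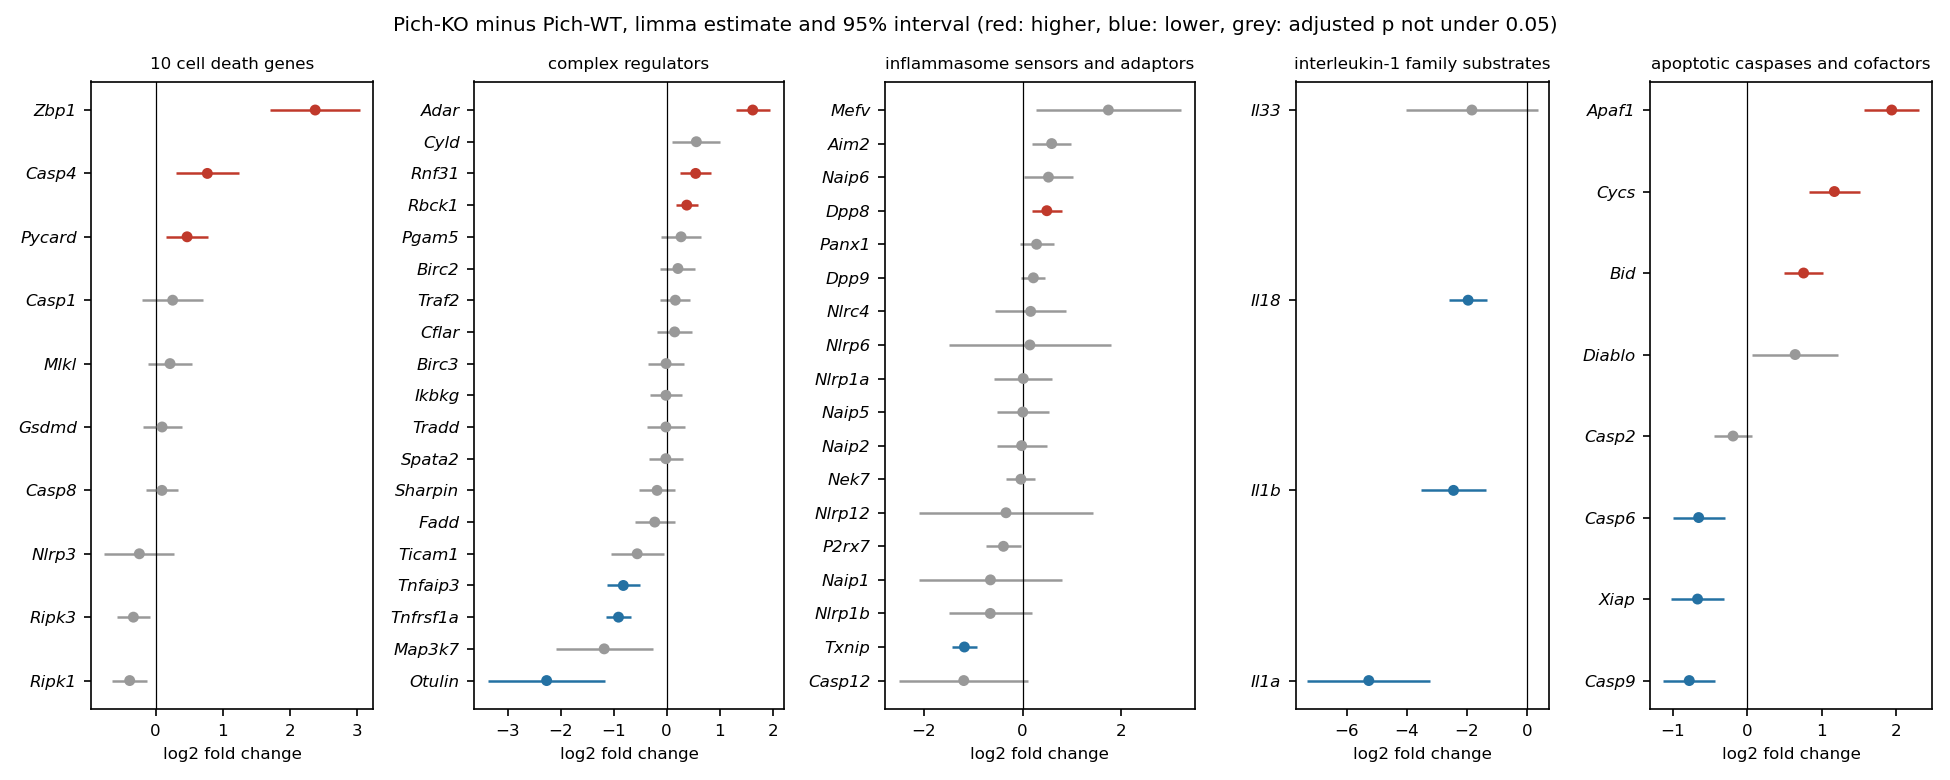
Log2 fold change, *Pich*-KO minus *Pich*-WT (horizontal axis, a scale of its own in each panel), with its 95% interval from limma for the 10 genes and for genes of 4 of the pathway lists, red for higher, blue for lower and grey for an adjusted p not under 0.05. *Zbp1* is at 2.37 and *Adar* at 1.62, while *Il1a*, *Il1b* and *Il18* lie between −5.27 and −1.96.

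Several of these genes are also expressed in macrophages and neutrophils, and markers of other cell types moved with the groups. In bulk RNA, fewer cells of a type and less RNA per cell cannot be told apart. The summed normalized counts of 14 macrophage markers were 10594 and 9269 in the *Pich*-KO libraries against 61262 and 63019 in the *Pich*-WT libraries, and 13 of the 14 were lower, with a median log2 fold change of −4.84. The marker *Adgre1*, which encodes the surface protein F4/80, had 273 and 205 against 6617 and 6927, *Vsig4* had 0 reads in *Pich*-KO sample 2 and 2 in sample 1, and *Fcgr1* did not pass the test. Of the 61 pathway genes, 11 were called lower, *Il1a*, *Il1b* and *Il18* among them, and 7 were called higher. A gene called lower shares the direction of most of these markers by its call alone. A gene called higher, as *Zbp1*, *Casp4* and *Pycard* were, goes against it in the same way. These directions therefore say nothing on which cells the RNA came from. The part of macrophage RNA in any of these values was not tested.

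The 9 neutrophil markers summed to 63592 and 118080 in the *Pich*-KO libraries against 16447 and 19057 in the *Pich*-WT libraries, and *Mpo* and *Prtn3*, which myeloid progenitors also express, made up most of each sum and were the 2 that passed as higher. The log2 fold changes of the 9 were positive for 4 and negative for 5, with a median of −0.16. *Casp1*, *Gsdmd*, *Mlkl* and *Pycard* had their highest value in the sample with the highest sum, *Pich*-KO sample 2, while *Zbp1*, *Casp4* and *Casp8* had theirs in *Pich*-KO sample 1. Erythroid markers were lower for 8 of 9 genes, endothelial markers for 5 of 5, megakaryocyte markers for 3 of 5 and hepatocyte markers for 3 of 5, and of 6 lymphoid markers 1 was higher and 1 lower. Among the 11 LSK and stem cell markers 1, *Ly6a*, was higher and 5 were lower, with a median log2 fold change of −0.57. The 5 were *Procr* at −2.88, *Hlf* at −2.37, *Mecom* at −2.10, *Slamf1* at −0.90 and *Gata2* at −0.58. The part of these shifts in the values of the 10 genes was not tested.

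**Figure D4:**
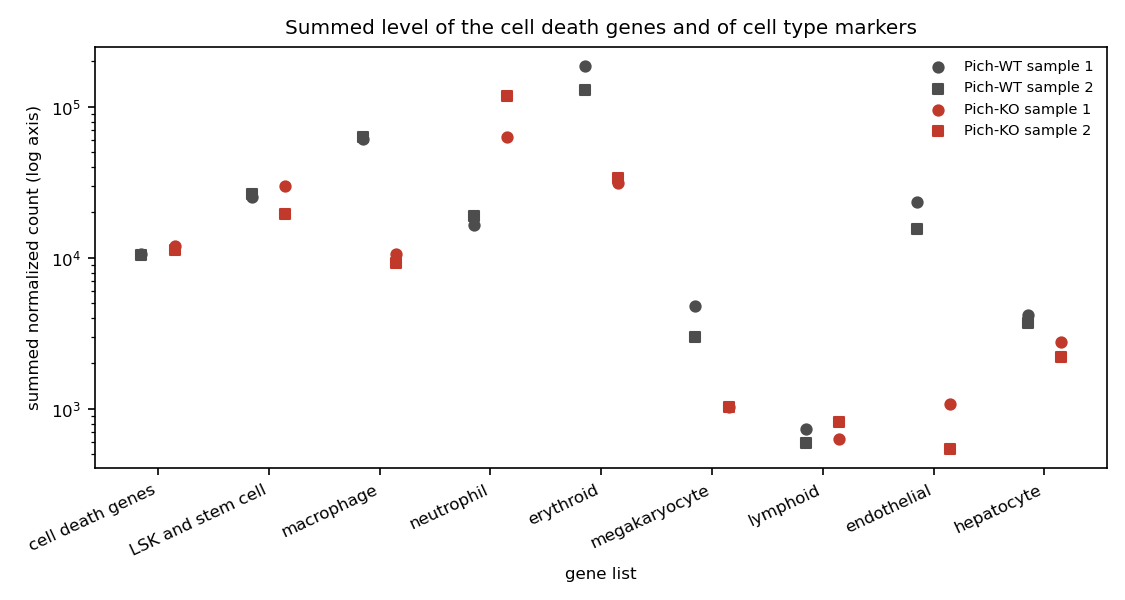
Summed normalized count (log axis) of the 10 cell death genes and of 8 lists of cell type markers in each sample, with circles for sample 1 and squares for sample 2 (grey *Pich*-WT, red *Pich*-KO). The 10 genes sum to 10465 to 11960 in all 4 samples, while the macrophage markers sum to 61262 and 63019 in *Pich*-WT and to 10594 and 9269 in *Pich*-KO.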

How the data were processed

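RNA of sorted fetal liver LSK cells was sequenced with the TruSeq RNA kit, which does not mark strand, in 2 *Pich*-KO and 2 *Pich*-WT samples, grouped by their titles. The authors deposited, per gene, a normalized signal, that is read counts divided by 1 size factor per sample. They also deposited group means, fold changes and p-values of their own comparison, which were not used. The submitters' processing notes list Bowtie 0.12.2 and the builds mm8 and mm9, whereas the start and end equalled those in GENCODE M21 for 97.8% of the 39163 genes it shares, so coordinates are given on GRCm38. The counting tool and annotation are not given in the sources used here.

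Values were whole multiples of 1 step per sample for 100% of genes, which gave back the reads, and depth was 14703215 to 20933919 reads on genes. The main test was limma 3.58.1 in R 4.3.3 on log2(normalized count + 1), over genes whose mean was 1 or more, with limma's variance trend (prior variance as a function of the mean) and an adjusted p (Benjamini-Hochberg) under 0.05. Alternatives were edgeR 4.0.16 and DESeq2 1.42.0 on the recovered reads, a pseudocount of 0.1, no filter, at least 10 reads in every sample, no variance trend, a replicate block and each sample left out. The procedure was also run on simulated counts whose spread followed a smooth trend with the mean. Such counts cannot check calls for genes whose spread departs from that trend.

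All 10 genes were named, as were pathway genes set by name whatever their values and, in each pathway list, of the genes called, up to 3 at either end of the log2 fold changes. *Serpinb6a*, *Ercc6l*, *Xist*, *Sharpin*, *Cyld* and the cell type markers named are outside this rule. Some genes that the rule names are not reported here. The genes and lists were chosen with earlier results of these data known.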

Additional observations from a re-analysis of the deposited data

How the results depend on the processing

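The direction of *Zbp1*, *Casp4*, *Pycard*, *Ripk1* and *Ripk3* was kept in all alternatives run, and their calls were not. Of the 10 genes, 3 were higher in the reported test, 1 without the filter on the mean and 0 without the variance trend, where 0 of all genes passed in either direction and 7377 had an unadjusted p under 0.05. With 1 sample left out the count of higher genes ran from 0 to 1. The lone sample left in a group was then assumed to vary like the others, and 0 genes at all passed in 3 of these 4 fits. The count of lower genes was 0 in the reported test and 2 with edgeR and with at least 10 reads in every sample, where 20.7% and 22.5% of all genes tested were lower. In both of these fits 3 of the 10 genes were higher, beside 18.6% and 21.1% of all genes tested.

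Of the 61 pathway genes, 7 were higher and 11 lower in the reported test, 0 and 0 without the variance trend, and 0 to 2 and 0 to 7 with 1 sample left out. Of 64 cell type markers, 4 were higher and 38 lower, and 0 to 5 and 0 to 25 with 1 sample left out. Signs turned when a sample was left out for *Casp1* (−0.017 without *Pich*-KO sample 2, with a range of −0.017 to 0.52), for *Nlrc4* (−0.12 without *Pich*-KO sample 2 and −0.13 without *Pich*-WT sample 2, −0.13 to 0.46) and for *Nek7* (0.047 and 0.028 without the same samples, −0.12 to 0.047). The cause was not tested.

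The replicate block called 1 of the 10 genes lower, *Ripk1* (adjusted p = 0.044, limma), and 3122 higher and 3874 lower of all genes, where the reported test called 2459 and 3113. The deviations of same-numbered samples had a correlation of 0.0133 across 10544 genes, so the numbers were not taken to pair the samples. Depth limits *Il1a* and 8 of the 10 gasdermin and rupture genes, the latter of which had at most 9 reads in any sample.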

Other observations

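The apoptotic route, the non-lytic alternative to necroptosis and pyroptosis, moved in both directions. Of 10 apoptotic caspases and cofactors, 3 were higher and 3 lower in *Pich*-KO, with a median log2 fold change of 0.044. Over all genes tested 7.58% were higher and 9.60% lower. Over those with at least 10 reads in every sample the shares were 21.1% and 22.5%. *Apaf1*, the scaffold of the apoptosome, had 823 ± 53.9 (SD, n = 2) normalized counts across *Pich*-KO and 213 ± 7.65 in *Pich*-WT, which gave a log2 fold change of 1.94 with an adjusted p of 0.000187 by limma. *Cycs*, the gene of cytochrome c that assembles it, had 5954 ± 1066 against 2638 ± 408.5, which gave a log2 fold change of 1.17 with an adjusted p of 0.00136 by limma. *Bid*, whose product links caspase-8 to the mitochondria, had 2929 ± 205 against 1731 ± 117, which gave a log2 fold change of 0.76 with an adjusted p of 0.00258 by limma.

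The caspase that the apoptosome activates went the other way. *Casp9* had 469.7 ± 35.0 (SD, n = 2) normalized counts against 805 ± 68.9, which gave a log2 fold change of −0.78 with an adjusted p of 0.00961 by limma. *Xiap*, an inhibitor of caspases, had −0.66 (adjusted p = 0.0196, limma), and the effector gene *Casp6* had −0.65 (adjusted p = 0.021, limma).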
